A study of Sus scrofa with 8 samples.

Results

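Intermediate filaments and nuclear lamins were followed in heart tissue of miniature pigs through 8 genes, taken as the rows of the deposited count table whose gene name was NES, DES, VIM, SYNM, SYNC, LMNA, LMNB1 or LMNB2. All 8 were found among the 31014 rows of the table, and all 8 passed the filter on low counts, among 14938 genes tested. The study compared wild-type (WT) miniature pigs given vehicle (n = 3 libraries) with wild-type miniature pigs given doxorubicin (n = 5), an anthracycline used against cancer that is known to damage the heart. The series title names the nuclear receptor ERRα and mitochondrial metabolism in anthracycline cardiotoxicity. The labels state no dose, schedule, age or sex. Nor do they say that each library came from its own animal, so the p-values speak only of how far these libraries spread, and that spread may be technical.

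Intermediate filament proteins share a central coiled-coil rod through which they pair and assemble into rope-like filaments. In cardiac muscle cells desmin filaments ring the Z-discs and tie myofibrils to each other, to the intercalated discs, to mitochondria and to the nucleus. Vimentin is the main filament of fibroblasts, endothelial cells and other cells of mesenchymal origin. Lamins form a meshwork under the inner nuclear membrane. A-type lamins are abundant in stiff, differentiated tissue such as muscle, and mutations of the desmin and A-type lamin genes cause cardiomyopathy.

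Nestin and all 3 lamin genes rose after doxorubicin, while desmin, vimentin, synemin and syncoilin did not pass the test. NES rose 8.84-fold, LMNA 2.29-fold, LMNB1 2.12-fold and LMNB2 1.67-fold. The test was edgeR's quasi-likelihood test over all 14938 genes, with Benjamini-Hochberg adjusted p under 0.05 as the threshold. Of the 8 members 4 were called, all higher. Over all tested genes 24.9% were called, 13.6% higher and 11.3% lower, and the groups did not overlap for 34.9% (17.1% with doxorubicin higher). The unadjusted p was under 0.05 for 40.8%. Levels below are CPM, counts relative to the library total, scaled by TMM, a normalization that takes most genes as not changing. With library totals alone as the scale the split of calls over all genes became 4093 higher and 499 lower (2033 and 1681 with TMM) and the median log2 fold change of all genes moved from 0.02 to 0.38, so changes on that scale are to be read against 0.38.

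**Figure D1:**
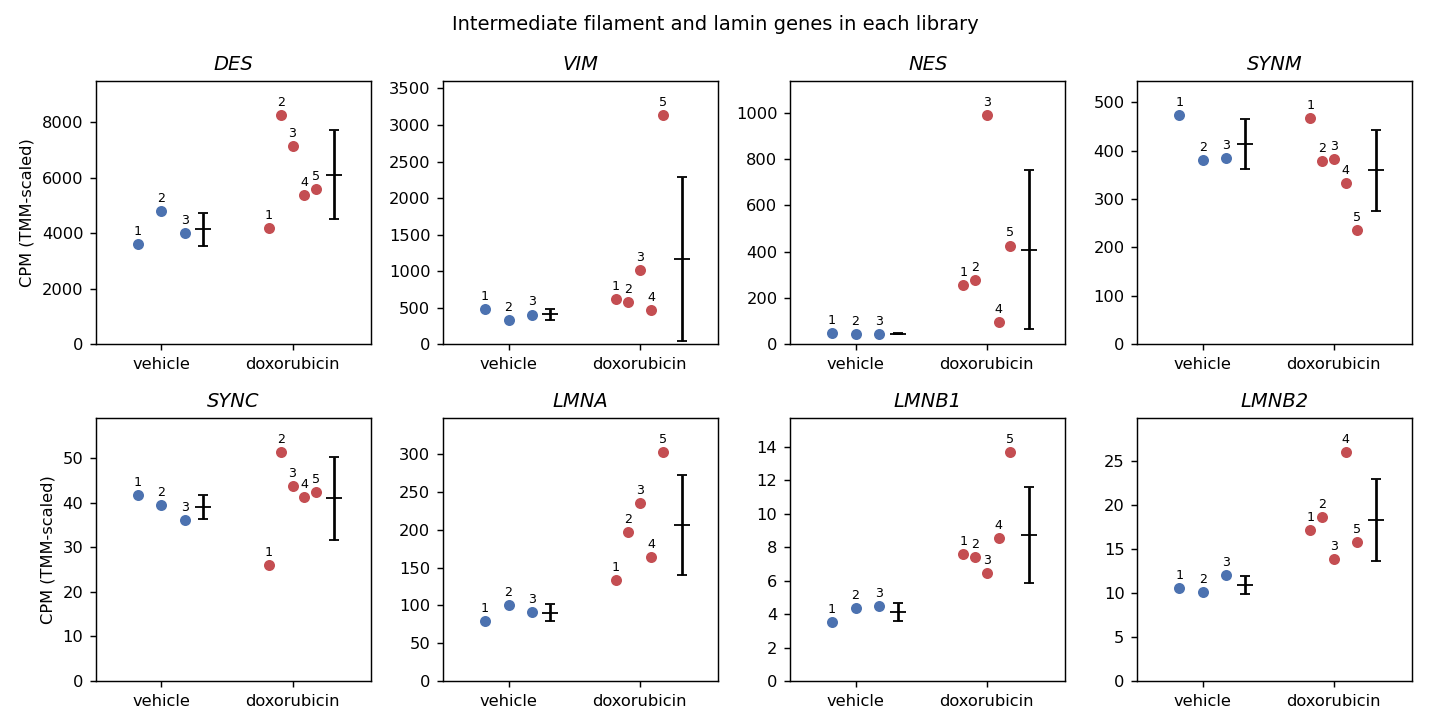
TMM-scaled CPM of the 8 genes (vertical axes, from 0) in each vehicle and doxorubicin library, with the replicate number above each point; black bars give mean ± SD (n = 3 and n = 5). The 5 doxorubicin points lie above all vehicle points for NES, LMNA, LMNB1 and LMNB2, with doxorubicin 5 far above the rest for VIM (3132 CPM) and doxorubicin 3 for NES (989.9 CPM).

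Library totals ran from 16105242 to 18267178 counts. Doxorubicin 5 was least like its group: its log2 levels correlated with those of the other doxorubicin libraries at 0.912 on average, against 0.941 to 0.956 for the other doxorubicin and 0.974 to 0.977 for the vehicle libraries. As a check of the tissue label, the 10 heart muscle cell markers found in the table (of 11 listed) summed to between 65480 and 73553 CPM in vehicle and between 40589 and 69282 CPM after doxorubicin, lowest in doxorubicin 5. Of these 10, 0 rose, 2 fell and 8 did not pass, and none was at 0 (24.9% of all tested genes were called). MYH7 was the largest part of the sum, at 31174 to 36593 CPM in vehicle and 13211 CPM in doxorubicin 5. In doxorubicin 5 TNNT2 was above vehicle (4279 CPM, vehicle 1805 to 3062). MYL2 (8811 CPM) and TNNC1 (4368 CPM) lay inside the vehicle range there, and the other markers below it. In bulk tissue, fewer cells of a type and less RNA per cell cannot be told apart.

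Desmin, encoded by DES (chromosome 15, 121428539 to 121435426 on Sscrofa11.1, protein-coding), was the most abundant of the 8 transcripts. DES stood at 3629.9, 4789.6 and 4025 CPM in vehicle 1 to 3, and at 4203, 8251, 7163, 5367 and 5598 CPM in doxorubicin 1 to 5. The libraries doxorubicin 2 and 3 were highest, and doxorubicin 1 lay inside the vehicle range, so the groups overlapped with 4 of 5 doxorubicin libraries above the highest vehicle one. The means were 4148 ± 590 and 6116 ± 1592 CPM (SD, n = 3 and n = 5). On the log2 scale the fold change was 0.56 (SE 0.27), with an adjusted p of 0.152 by edgeR's quasi-likelihood test, so DES was not called. With library totals as the scale (0.93, adjusted p = 0.0330) and with limma voom with quality weights (0.71, adjusted p = 0.00737) it did pass.

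Vimentin, encoded by VIM (chromosome 10, 43516441 to 43526172), marks mesenchymal cells and is low in mature heart muscle cells. VIM was at 478, 337 and 407 CPM in vehicle 1 to 3, and at 624.8, 582, 1010.45, 473 and 3132 CPM in doxorubicin 1 to 5. A single library, doxorubicin 5, held 7.69 times the vehicle mean, doxorubicin 3 held 2.48 times, and doxorubicin 4 lay inside the vehicle range. The log2 fold change was 1.52 (SE 0.63, adjusted p = 0.101 by edgeR), and VIM was not called. Without doxorubicin 5 its fold change went from 2.86 to 1.66 (adjusted p = 0.0599). It passed with DESeq2 (1.53 on the log2 scale, adjusted p = 0.0222) and with limma voom (0.59, adjusted p = 0.0363).

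Connective tissue markers did not all follow VIM. The 9 fibroblast markers summed to between 1445 and 1687 CPM in vehicle and between 2722 and 31625 CPM after doxorubicin, highest in doxorubicin 5 and next in doxorubicin 3 (7522 CPM). Collagen made up most of the sum in doxorubicin 5, where COL3A1 held 11487 CPM, COL1A2 7563 CPM and COL1A1 6607 CPM. Of the 9, 4 rose, 1 fell and 4 did not pass, where 24.9% of all tested genes were called. The one that fell was PDGFRA, a growth factor receptor of fibroblasts, at 35.9 to 47.4 CPM in vehicle and 9.62 to 30.7 CPM after doxorubicin. DCN, which encodes the matrix proteoglycan decorin, was at 339 to 388 CPM in vehicle. It was at 408, 134, 294, 303 and 657 CPM in doxorubicin 1 to 5. DCN was thus highest in doxorubicin 5, as VIM was, and below vehicle in doxorubicin 3, the library second highest for VIM. In doxorubicin 4 the fibroblast sum (2722 CPM) was above vehicle while VIM was not. Smooth muscle and pericyte markers (8 genes, 2 higher and 1 lower) summed to between 808 and 1484 CPM in vehicle. After doxorubicin they summed to between 857 and 4474 CPM, again highest in doxorubicin 5. TAGLN (2132 CPM) and ACTA2 (1826 CPM) made up most of the sum there, and CNN1 and PDGFRB were also above vehicle. MYH11 lay inside the vehicle range. RGS5 (114 CPM, vehicle 253 to 413), ABCC9 (45.1 CPM, vehicle 160 to 224) and KCNJ8 (69.3 CPM, vehicle 99.4 to 129) were below it. The 8 endothelial markers (0 higher, 1 lower) summed to between 1211 and 1577 CPM in vehicle and had their lowest sum, 511 CPM, in doxorubicin 5. Macrophage markers (8 genes, 4 higher, 0 lower) went from between 118 and 159 CPM to between 176 and 510.1 CPM. No marker of these 4 lists was at 0 in vehicle. T and NK cell markers (6 genes, 4 higher, 0 lower) went from between 5.86 and 8.25 CPM to between 11.8 and 28.9 CPM, highest in doxorubicin 3. CD2 was the largest part of the sum there (14.9 CPM). CD3D, CD3E, NKG7 and GZMB were highest in doxorubicin 4 and CD3G in doxorubicin 5. CD3D passed the filter on low counts only with its doxorubicin libraries. Of 2 tested adipocyte markers 1 fell, ADIPOQ, from between 2.08 and 18.8 CPM to between 0 and 0.218 CPM. Of 6 Schwann cell markers 1 fell, CDH19, from between 8.04 and 13.4 CPM to between 0.909 and 6.28 CPM. Their part in the level of VIM, or of any other member, was not tested.

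**Figure D2:**
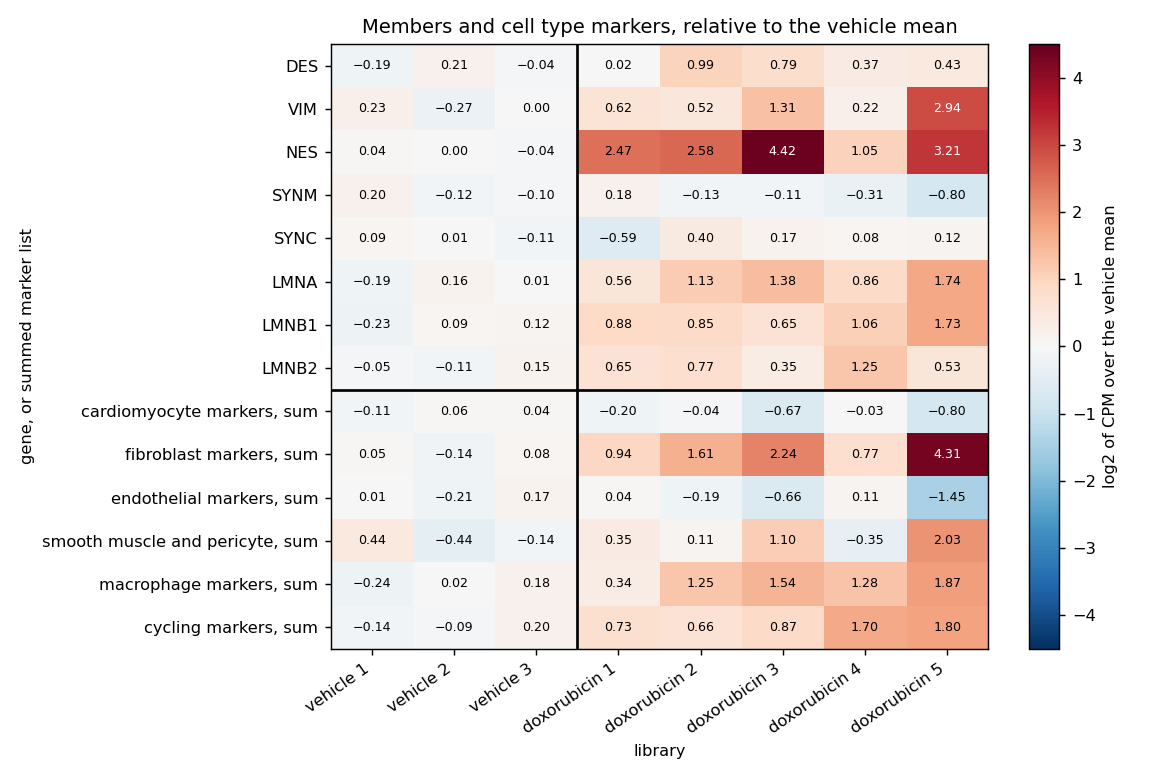
Log2 of the level in each library over the vehicle mean (colour and printed value) for the 8 genes, above the line, and for the summed CPM of 6 cell type marker lists, below it. Doxorubicin 5 is the highest doxorubicin library for VIM, LMNA and LMNB1 and for the fibroblast, smooth muscle, macrophage and cycling sums, whereas NES is highest in doxorubicin 3.

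Nestin, encoded by NES (chromosome 4, 93412660 to 93421899), cannot form filaments alone and copolymerizes with vimentin or desmin. It is known from neural and muscle progenitors, from new vessels and from regenerating muscle. NES was at 47.6, 46.2 and 45.1 CPM in vehicle (666, 666 and 634 reads). After doxorubicin it was at 256, 277, 989.9, 96.0 and 427 CPM in libraries 1 to 5. Every doxorubicin library lay above every vehicle one, from 2.07 times the vehicle mean in doxorubicin 4 to 21.4 times in doxorubicin 3. The log2 fold change was 3.14 (SE 0.68, adjusted p = 0.0137 by edgeR). The coefficient of variation was 2.71% in vehicle (3 libraries) and 84.4% after doxorubicin (5 libraries). Without doxorubicin 3 the fold change went from 8.84 to 5.72 and still passed (adjusted p = 0.0159). The call was lost without vehicle 1 (adjusted p = 0.0653) or vehicle 3 (0.0639), at fold changes of 8.93 and 8.69. In these fits 649 and 712 genes were called over all genes, in place of 3714.

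NES and VIM did not peak in the same library. The order of NES was doxorubicin 3, 5, 2, 1 and 4 from high to low, and that of VIM was 5, 3, 1, 2 and 4. The endothelial sum in doxorubicin 3, where NES was highest, was 883 CPM, below every vehicle library. Within it ERG (44.8 CPM, vehicle 31.4 to 37.3) and CLDN5 (38.1 CPM, vehicle 13.6 to 29.2) were above vehicle and the other markers below. The fibroblast sum (7522 CPM) and the smooth muscle and pericyte sum (2353 CPM) of that library were above vehicle. In the latter sum TAGLN (960 CPM), ACTA2 (579 CPM), CNN1 and PDGFRB were above vehicle. MYH11 and KCNJ8 lay inside the vehicle range, and RGS5 (164 CPM) and ABCC9 (96.3 CPM) below it. The part of these cells in the level of NES was not tested.

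Synemin, encoded by SYNM (chromosome 1, 137855644 to 137883914), is a large filament protein that copolymerizes with desmin or vimentin and binds proteins of the Z-disc and the cell membrane. SYNM was at 473, 381 and 385 CPM in vehicle and at 467, 378, 383, 334 and 237 CPM in doxorubicin 1 to 5. The groups overlapped, with 3 of 5 doxorubicin libraries below the lowest vehicle one and doxorubicin 5 the lowest. Its log2 fold change of −0.20 (SE 0.23, adjusted p = 0.543 by edgeR) was not called and had the opposite sign with library totals as the scale (0.15). Relative to the median of all genes on that scale it was −0.22.

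Syncoilin, encoded by SYNC (chromosome 6, 89006633 to 89026307), binds desmin and α-dystrobrevin of the dystrophin complex. SYNC was at 41.6, 39.4 and 36.1 CPM in vehicle and at 25.97, 51.4, 43.8, 41.3 and 42.4 CPM in doxorubicin 1 to 5. The low library was doxorubicin 1 and the high one doxorubicin 2, the same pair as for DES. With a log2 difference of 0.07 (SE 0.20, adjusted p = 0.824 by edgeR) SYNC was not called, and the value was −0.02 without doxorubicin 2. SYNC overlaps RBBP4 on the other strand by 183 bases, and the counts of RBBP4 came to 376% of those of SYNC. The labels do not say whether counting used the strand, so reads of that stretch could be shared.

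The 3 lamin genes rose together, each with every doxorubicin library above every vehicle one. LMNA (chromosome 4, 93899019 to 93927255) encodes lamins A and C by alternative splicing, which counts per gene do not separate. LMNA was at 79.0, 101 and 91.1 CPM in vehicle and at 133, 198, 235, 164 and 303 CPM in doxorubicin 1 to 5. Doxorubicin 5 was highest, at 3.35 times the vehicle mean, and doxorubicin 1 lowest, at 1.48 times. The log2 fold change was 1.19 (SE 0.27, adjusted p = 0.0153 by edgeR).

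LMNB1 (chromosome 2, 129807228 to 129862211) encodes lamin B1, a B-type lamin that stays anchored in the membrane by its farnesyl tail and whose loss is known as a sign of cell senescence. It had the fewest reads of the 8 genes, 49 to 63 in vehicle and 138 to 274 after doxorubicin. Its level was 3.50, 4.37 and 4.48 CPM in vehicle and 7.59, 7.43, 6.44, 8.56 and 13.7 CPM in doxorubicin 1 to 5. The lowest doxorubicin library was doxorubicin 3 and the highest doxorubicin 5. LMNB1 rose by 1.09 on the log2 scale (SE 0.28, adjusted p = 0.0241 by edgeR). Of the 6 cycling markers 2 were higher, 0 lower and none at 0, beside 24.9% called over all genes (13.6% higher). They summed to between 10.1 and 12.7 CPM in vehicle and between 17.5 and 38.6 CPM after doxorubicin. The sum was highest in doxorubicin 5 and next in doxorubicin 4 (35.8 CPM). MKI67 and CENPF were highest in doxorubicin 4, and TOP2A, CCNB1, CCNA2 and BUB1 in doxorubicin 5. The part of cycling cells in the level of LMNB1 was not tested.

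LMNB2 (chromosome 2, 76125932 to 76146564) encodes lamin B2, the other B-type lamin. LMNB2 was at 10.6, 10.1 and 12.1 CPM in vehicle and at 17.1, 18.6, 13.9, 26.04 and 15.8 CPM in doxorubicin 1 to 5. Here doxorubicin 4 was highest, at 2.38 times the vehicle mean, while doxorubicin 5 held 1.44 times. LMNB2 rose by 0.74 on the log2 scale (SE 0.22, adjusted p = 0.0361 by edgeR). No lamin kept its call whichever library was left out. Calls over all genes also fell, from 3714 to 649, 1969 and 712 without vehicle 1, vehicle 2 and vehicle 3. Without vehicle 1 the adjusted p was 0.0772 for LMNA, 0.103 for LMNB1 and 0.126 for LMNB2, and without vehicle 3 it was 0.0699, 0.0783 and 0.0928. LMNB1 (0.0645) and LMNB2 (0.111) were also not called without vehicle 2, nor LMNB2 without doxorubicin 2 (0.0660). The log2 fold changes of the 3 lamins stayed between 0.58 and 1.31 over all libraries left out.

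NES and LMNA lie 477 kb apart on chromosome 4. Between them the table holds 22 genes, of which 11 were tested and 3 were called, all higher (27.3%, beside 13.6% called higher over all genes). This describes the interval and was not tested.

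Levels of different genes were set side by side as CPM per kilobase of the deposited gene length. In vehicle the order was DES (1699 ± 242), VIM (139 ± 24.2), SYNM (61.1 ± 7.68), LMNA (22.3 ± 2.72), NES (8.29 ± 0.224), SYNC (8.16 ± 0.581), LMNB2 (2.32 ± 0.218) and LMNB1 (1.38 ± 0.180) CPM per kilobase. Of the 7 neighbouring pairs only NES and SYNC had overlapping ranges over the 3 libraries. After doxorubicin the order was DES (2506 ± 652), VIM (399 ± 383), NES (73.3 ± 61.8), SYNM (53.2 ± 12.4), LMNA (50.9 ± 16.2), SYNC (8.56 ± 1.94), LMNB2 (3.88 ± 0.990) and LMNB1 (2.93 ± 0.962). NES moved from the fifth to the third place by its mean, but NES exceeded SYNM in 2 of the 5 libraries only and SYNM exceeded LMNA in 3 of 5. The ranges also overlapped for VIM and NES, SYNC and LMNB2, and LMNB2 and LMNB1.

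Within each family the composition per kilobase moved most for nestin. NES made up 9.78% to 11.4% of the sum of NES, SYNM and SYNC in vehicle. After doxorubicin it made up 38.1%, 42.6%, 72.9%, 22.9% and 63.5% in libraries 1 to 5, above vehicle in all 5. SYNM went from 78.7% ± 1.46 to 44.7% ± 18.1 of that sum, with no overlap.

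Desmin remained the larger part of the sum of DES and VIM in every library. VIM made up 5.55% to 9.91% of that sum in vehicle and 5.57% to 11.1% in doxorubicin 1 to 4, but 31.9% in doxorubicin 5. The makeup of the lamina overlapped between the groups. LMNA was 85.7% ± 1.44 of lamin transcripts per kilobase in vehicle and 87.5% ± 3.93 after doxorubicin, LMNB1 5.31% ± 0.307 and 5.18% ± 1.22, and LMNB2 9.01% ± 1.27 and 7.32% ± 3.08. The B-type lamins together ranged from 12.7% to 15.3% in vehicle and from 8.11% (doxorubicin 3) to 17.2% (doxorubicin 4). These shares were not tested.

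**Figure D3:**
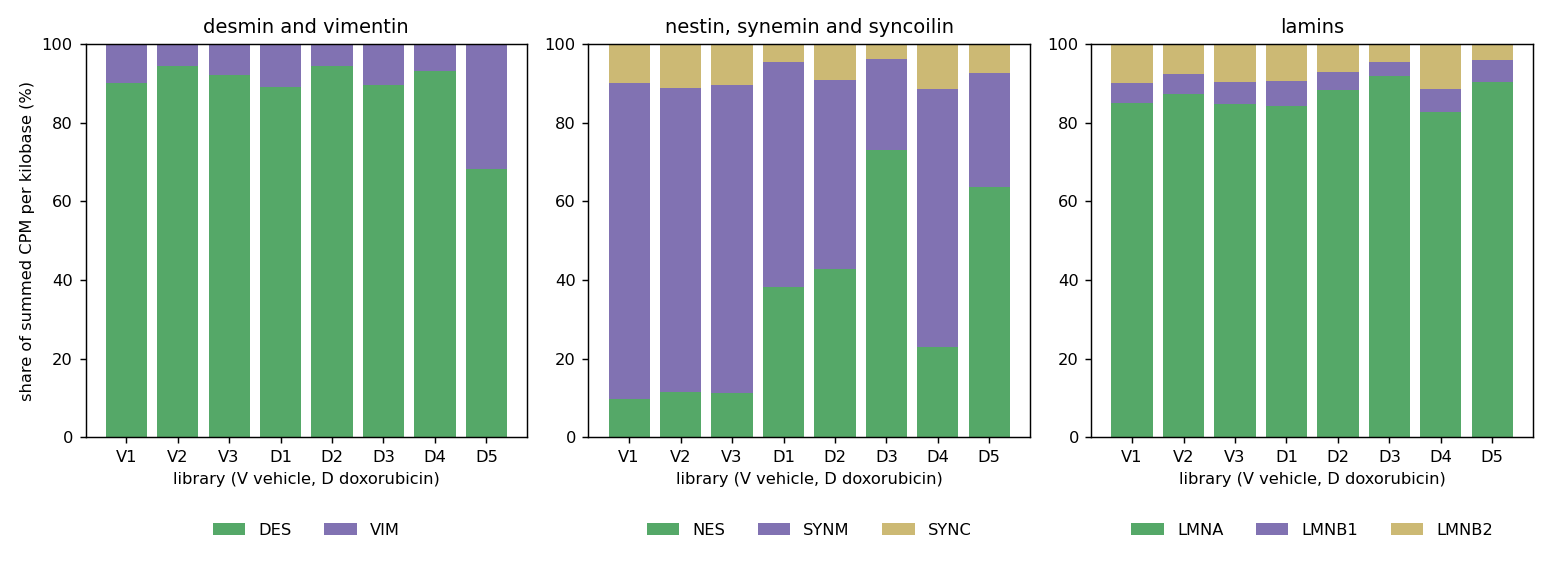
Share of each gene in its family's summed CPM per kilobase (stacked bars, percent) in vehicle (V) and doxorubicin (D) libraries. NES takes a larger share of the middle family in all 5 doxorubicin libraries, VIM stands out in D5 (31.9%), and the lamin shares overlap between the groups.

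Genes outside the family with the most similar course over the 8 libraries were found by the root-mean-square difference of log2 CPM after setting the vehicle mean to 0, among 12207 other genes with a symbol and a mean of 1 CPM or more. Smaller values mean more alike, and the libraries share these measurements' depth and group structure. Nearest to NES were AHNAK2 (0.331), SULF2 (0.369) and TNFRSF11B (0.373), the last of which encodes osteoprotegerin. Nearest to VIM were SDC2 (0.145), ANTXR1 (0.170) and ACTG1 (0.181), which encode a syndecan, an anthrax toxin receptor that binds collagen and cytoplasmic γ-actin. Nearest to LMNA were RGS3 (0.0855), LLGL1 (0.102) and PLSCR3 (0.120), to LMNB1 DNAJB1 (0.159), TRIP6 (0.176) and ADAMTSL4 (0.187), and to LMNB2 NRP2 (0.139), POLD2 (0.145) and NEDD9 (0.149). Nearest to DES were UCK2 (0.149), BAG3 (0.149), a cochaperone that helps clear damaged Z-disc proteins, and TRAPPC9 (0.151). SYNM was nearest to C7H6orf62, MAT2A and TAPT1 (0.0941 to 0.120), and SYNC to DCUN1D3, BLOC1S5 and GRB2 (0.116 to 0.131). Among the 8 members the closest pair was LMNA and LMNB1 (0.314), and NES lay farthest from the others (1.46 from LMNA to 2.52 from SYNM).

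Of the other intermediate filament genes, 23 were listed and 9 were tested, of which 4 rose, 0 fell and 5 did not pass. Their median log2 fold change was 0.88 where all tested genes had 0.02, and 24.9% of all tested genes were called. KRT8, KRT18 and NEFL passed the filter on low counts only with their doxorubicin libraries. Genes so admitted could hardly fall, which tilts these counts and the median upward. The 14 not tested had too few reads or, for KRT14 and KRT17, were not matched by name and are not analysed here. KRT8 encodes keratin 8, a filament of simple epithelia that pairs with keratin 18. It had 6, 77 and 12 reads in vehicle 1 to 3 and 180, 985, 1064, 404 and 1776 reads in doxorubicin 1 to 5. All 5 doxorubicin libraries were higher, and vehicle 2 stood above the other two vehicle libraries. The log2 fold change of KRT8 was 4.30 (SE 0.98, adjusted p = 0.0164 by edgeR), 6.08 without vehicle 2, and the call was lost without vehicle 1 (0.0644) or vehicle 3 (0.0693) and with no filter on low counts (0.0576). KRT18 had 0 to 7 reads in vehicle and 4 to 61 after doxorubicin (adjusted p = 0.0895 by edgeR) and was not called. Another keratin gene, KRT80, had 326 to 388 reads in vehicle and 279 to 1368 after doxorubicin (0.73, SE 0.38) and did not pass.

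Markers of mesothelium, an epithelium that covers the heart and carries keratins, stood beside these values. Of 4 listed, 2 were matched and 1, WT1, was tested and not called. Their sum ran from 3.68 to 5.62 CPM in vehicle and from 2.05 CPM in doxorubicin 3 to 32.2 CPM in doxorubicin 5. WT1 made up nearly all of it (32.1 CPM in doxorubicin 5). The other matched marker, UPK3B, was at 0.100 CPM in doxorubicin 5, inside its vehicle range (0.0693 to 0.214 CPM). KRT8 was at 49.7 CPM in doxorubicin 3 and 88.8 CPM in doxorubicin 5. The part of mesothelial cells in the level of KRT8 was not tested. KRT10, a keratin of the epidermis (1.10, SE 0.33), and IFFO1 (0.71, SE 0.17) and IFFO2 (0.88, SE 0.22), which carry a filament rod domain, also rose. IFFO1 overlaps GAPDH on the other strand by 155 bases, and the counts of GAPDH came to 35630% of those of IFFO1, so reads could be shared. What part GAPDH reads have in the level of IFFO1 was not tested.

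Of 22 listed partner genes of the lamina 21 were tested, of which 3 rose, 2 fell and 16 did not pass, with a median of −0.06. With library totals as the scale 5 rose and 0 fell. Over all tested genes 24.9% were called with TMM, 13.6% higher and 11.3% lower. The partner genes that rose with TMM were EMD, LEMD2 and TMEM43. EMD encodes emerin, which binds lamins and is lost in an Emery-Dreifuss dystrophy. EMD was at 32.4, 35.9 and 34.5 CPM in vehicle and at 46.0, 53.4, 54.8, 51.2 and 92.1 CPM in doxorubicin 1 to 5, above vehicle in all 5. Its log2 fold change was 0.80 (SE 0.23). LEMD2, which shares the LEM domain of emerin, rose by 0.88 (SE 0.24) and TMEM43, mutated in a form of arrhythmogenic cardiomyopathy, by 0.67 (SE 0.18). TMEM43 overlaps XPC on the other strand by 126 bases, and the counts of XPC came to 39.4% of those of TMEM43.

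The genes that fell were TOR1AIP1 and MLIP. TOR1AIP1 encodes LAP1, which binds lamins and activates torsin, and went from 63.9 to 39.8 CPM (log2 fold change −0.68, SE 0.14). It overlaps TOR1AIP2 on the other strand, a gene whose own counts came to 48.2% of those of TOR1AIP1. MLIP encodes a muscle protein that binds lamins A and C, and went from 253 to 171 CPM (−0.56, SE 0.18). The lamin B receptor gene LBR (−0.51, SE 0.22), the linker genes SUN1 (0.05, SE 0.15), SUN2 (−0.26, SE 0.18), SYNE1 (−0.33, SE 0.36) and SYNE2 (−0.56, SE 0.26), and BANF1 (−0.06, SE 0.18) did not pass. SUN and SYNE proteins together bridge the lamina to the cytoskeleton, desmin included.

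Of the 6 enzyme genes that mature prelamin A and B-type lamins, 1 fell and 5 did not pass (median 0.08), beside 24.9% called over all genes. With library totals as the scale 2 rose and 0 fell. ZMPSTE24 encodes the protease that trims farnesylated prelamin A. ZMPSTE24 was at 43.9, 40.6 and 37.6 CPM in vehicle and at 24.3, 24.1, 25.7, 27.8 and 33.3 CPM in doxorubicin 1 to 5, below vehicle in all 5 (−0.59, SE 0.15, adjusted p = 0.0217 by edgeR). LMNA rose and ZMPSTE24 fell in the same 5 libraries. Neither prelamin A nor any other protein was measured. The farnesyltransferase subunit genes FNTA (−0.29, SE 0.17) and FNTB (0.11, SE 0.18), and ICMT (0.06, SE 0.20) and RCE1 (0.55, SE 0.24), did not pass.

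The next list holds genes of proteins that anchor filaments to junctions, Z-discs and the membrane. Of 19 listed 18 were tested, 3 rose, 2 fell and 13 did not pass (median −0.05), beside 24.9% called over all genes. With library totals as the scale 4 were higher and 0 lower. PLEC encodes plectin, a giant linker of desmin to Z-discs, costameres, mitochondria and the nucleus. PLEC was at 282, 267 and 275 CPM in vehicle and at 542, 779, 669, 612 and 283 CPM in doxorubicin 1 to 5. The first 4 doxorubicin libraries held at least 542 CPM, while doxorubicin 5 was barely above vehicle 1 (1.07, SE 0.30). ZYX, which encodes the focal adhesion protein zyxin, rose by 1.21 (SE 0.21), and JUP, which encodes plakoglobin of desmosomes, by 0.68 (SE 0.19).

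DSC2, a desmosomal cadherin, went from 193 to 110.3 CPM (−0.81, SE 0.16), and DTNA, the α-dystrobrevin that syncoilin binds, from 174 to 96.7 CPM (−0.85, SE 0.20). The other desmosome genes DSP (0.11, SE 0.32), PKP2 (−0.59, SE 0.23) and DSG2 (−0.55, SE 0.20) did not pass. Without doxorubicin 5 the list had 5 higher and 3 lower members. Calls over all genes rose as well in that fit, from 3714 to 4737.

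Among 12 chaperone and turnover genes 2 rose, 1 fell and 9 did not pass (median 0.22), beside 24.9% called over all genes. With library totals 6 were higher and 0 lower. CRYAB encodes αB-crystallin, the small heat shock protein that holds desmin in solution. CRYAB was at 356, 492 and 372 CPM in vehicle and at 801, 981, 1052, 783 and 823 CPM in doxorubicin 1 to 5. All 5 doxorubicin libraries lay above vehicle, and the log2 fold change was 1.13 (SE 0.21). CRYAB overlaps HSPB2 on the other strand, whose own counts came to 13.3% of those of CRYAB. CAPN1, the large subunit of µ-calpain, a protease that cuts desmin, rose by 0.84 (SE 0.15). KLHL24, a ubiquitin ligase adaptor whose gain-of-function mutations affect keratin 14 and desmin, fell by 0.94 (SE 0.26). HSPB1 (0.45, SE 0.22), BAG3 (0.46, SE 0.20), TRIM32 (0.21, SE 0.20) and TRIM63 (−0.21, SE 0.20) did not pass.

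Among 10 kinases that phosphorylate filaments or lamins 3 rose, 1 fell and 6 did not pass (median 0.30), beside 24.9% called over all genes. With library totals 5 were higher and 0 lower. CDK1, which disassembles the lamina at mitosis, rose from between 8 and 11 reads in vehicle to between 27 and 100 reads (1.97, SE 0.53). PLK1, another mitotic kinase, rose from between 7 and 11 reads to between 20 and 84 reads (1.87, SE 0.52). These mitotic kinase genes passed the filter on low counts only with their doxorubicin libraries, which tilts the count of kinases that rose upward. CDK1 and PLK1 were highest in doxorubicin 5, as was the cycling marker sum, and their part was not tested. PRKCA, a protein kinase C, rose by 0.79 (SE 0.24). CAMK2D, the main cardiac CaM kinase II, went from 622 to 257 CPM (−1.27, SE 0.33) and was lowest in doxorubicin 5 (109 CPM).

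**Figure D4:**
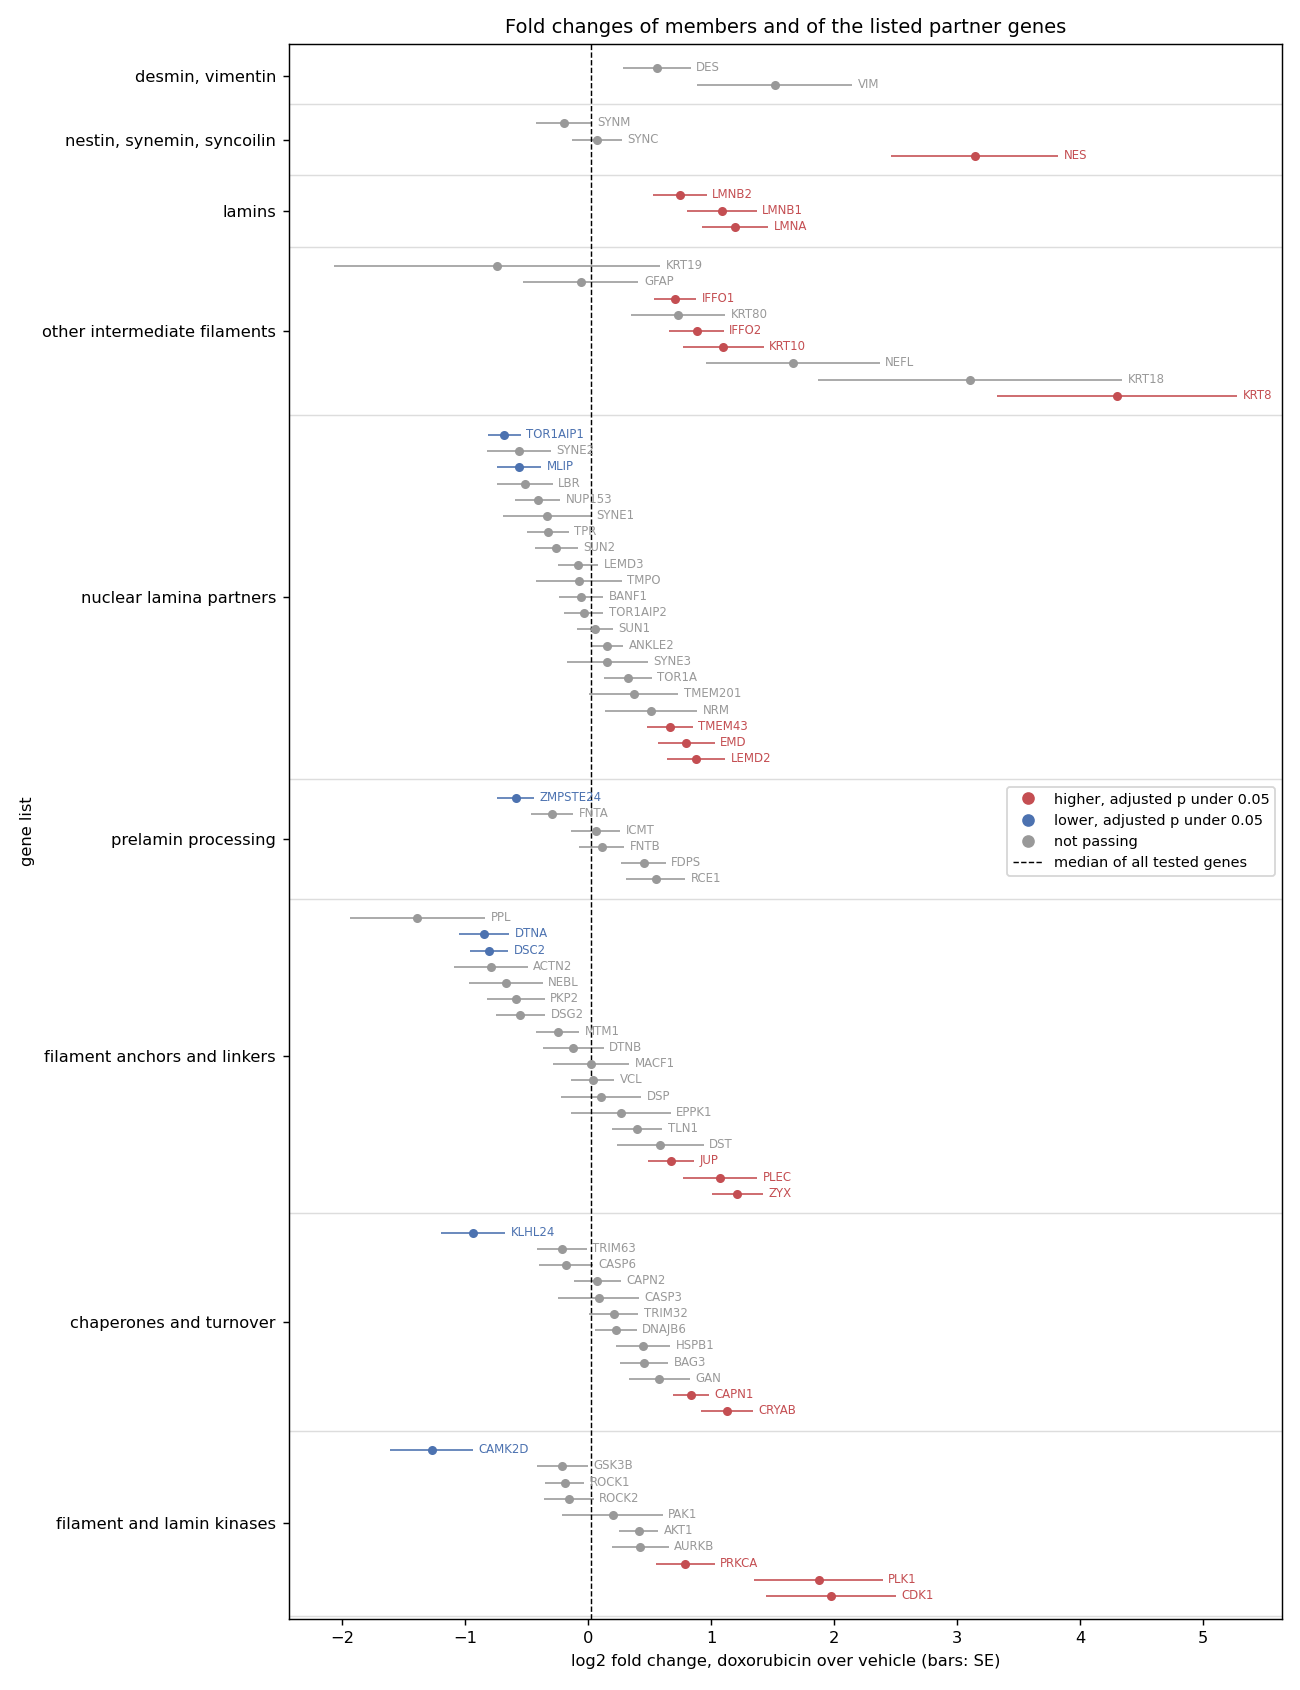
Log2 fold change (horizontal axis, bars are SE) of the 8 genes and of the tested genes of each partner list, 3 vehicle against 5 doxorubicin libraries. Red and blue points passed at adjusted p under 0.05; all 3 lamins and NES are red, while lamina partners, anchors, chaperones and kinases hold both colours and mostly gray points.

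Adjusted p-values of the 22 partner genes named as changed ran up to 0.0449 (MLIP). Of these 22, 20 lost the call without at least 1 library: 20 without vehicle 1, 14 without vehicle 2 and 19 without vehicle 3. Calls over all genes fell as well, from 3714 to 649 without vehicle 1, 1969 without vehicle 2 and 712 without vehicle 3. ZYX and CAPN1 passed whichever library was left out. The 7 that fell did not pass with library totals as the scale, where the 6 lists together had 26 higher and 0 lower genes in place of 15 and 7.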

How the data were processed

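Heart messenger RNA was measured in 3 vehicle and 5 doxorubicin libraries. RNA was column-purified and libraries were made with a SMARTER mRNA kit, per the labels' protocols. The authors deposited raw counts per gene (whole numbers, not normalized) with gene names, coordinates and gene lengths. The aligner, counter and strand setting: not given in the sources used here. Coordinates of all 8 genes matched RefSeq's Sscrofa11.1 table.

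Counts were fitted in R 4.3.3 with edgeR 4.0.16: filterByExpr (minimum count 10, minimum total 15), TMM, and its robust quasi-likelihood test, two-sided, with no covariate besides treatment. The SE is the size of the log2 fold change over the root of F. The fit was tested on simulated data. Alternatives were limma 3.58.1 (voom, weighting libraries by quality), DESeq2 1.42.0, RLE factors, scaling by totals, TMM leaving out 20 top genes with mitochondrial and haemoglobin genes, testing every gene, a CPM minimum of 1 in 3 libraries, a replicate block, and each library left out.

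Members, gene lists and tests were chosen with earlier results of these data known. Partner genes are named where they passed, up to 4 a list and direction by smallest p, with the 3 nearest genes of each member. Partner genes named without passing were chosen after their values were seen. Log2 CPM used a prior count of 2. Of the 8 genes LMNB1 had the fewest reads.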

Additional observations from a re-analysis of the deposited data

Results flagged for a closer look

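Among 34 values examined over the 5 doxorubicin libraries (the 8 genes, the named partner genes and the family shares), 5 held a library that stood far from the other 4, with a gap to its nearest neighbour of more than 0.71 of the whole range. Chance flags about 1 in 20 such groups if the values are independent and normal. Here the 34 values share the same 5 libraries, and VIM enters as a level and as a share. The count of flags therefore cannot be set against that rate. All 5 concerned doxorubicin 5. VIM was at 3132 CPM there (473 to 1010.45 CPM in the others), and its share of the sum of DES and VIM per kilobase was 31.9% (5.57% to 11.1%). EMD was at 92.1 CPM (46.0 to 54.8 CPM). MLIP was at 124 CPM (179 to 188 CPM), and JUP at 71.1 CPM (109 to 116 CPM).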

How the results depend on the processing

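Directions of NES, LMNA, LMNB1, LMNB2, DES and VIM held under all 16 alternatives. The replicate numbers showed no sign of pairing (correlations of deviations from −0.00312 to 0.0425), but with so few libraries this check cannot exclude it. The fit with a replicate block called 3638 genes instead of 3714. Doxorubicin 4 and doxorubicin 5 have no vehicle library of the same number. The block fit therefore drew its fold changes from replicates 1 to 3 only. With that block LMNB1 (0.80, adjusted p = 0.0524) and LMNB2 (0.59, adjusted p = 0.0669) were not called and SYNC was at −0.00054. Nor were KRT10 (adjusted p = 0.0566), MLIP (0.106), CDK1 (0.0612, fold change 2.47 in place of 3.93), PLK1 (0.0894) and PRKCA (0.0510), which left 0 kinase genes higher and 1 lower. With no filter on low counts KRT8 (0.0576) and MLIP (0.0812) were not called. With library size only SYNM was at 0.15, and DES passed at 0.93. VIM passed with DESeq2 (1.53), and DES (0.71) and VIM (0.59) passed with limma voom, which called 8051 genes and 39 partner genes in place of 22. Leaving out 1 library gave 649 (vehicle 1) to 4737 (doxorubicin 5) genes called and 2 (vehicle 1) to 26 (doxorubicin 5) partner genes. The log2 fold changes then ran from 2.52 to 3.40 for NES, 1.02 to 1.31 for LMNA, 0.87 to 1.18 for LMNB1, 0.58 to 0.83 for LMNB2, 0.43 to 0.67 for DES, 0.73 to 1.72 for VIM, −0.31 to −0.08 for SYNM and −0.022 (without doxorubicin 2) to 0.19 for SYNC. The cause of these changes was not tested. Vehicle reads were few for CDK1 (8 to 11), PLK1 (7 to 11), KRT8 (6 to 77), KRT10 (27 to 57) and LMNB1 (49 to 63). Leaving out each library for the shares within a family was chosen after seeing the data, and each mean share then moved by less than its SD.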

Other observations

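NARF and LMNTD1, outside the lists, and the keratin gene KRT7 were chosen after their values were seen. NARF, which encodes a protein that binds prelamin A, went from 28.6 ± 2.96 to 56.29 ± 15.999 CPM (log2 fold change 0.98, SE 0.23, adjusted p = 0.0162 by edgeR), with no overlap between the groups. LMNTD1, named for a lamin tail domain, went from 1.502 ± 0.746 to 4.35 ± 1.92 CPM (1.53, SE 0.48, adjusted p = 0.0452 by edgeR). KRT7, which encodes another keratin of simple epithelia, was not tested: it had 0 reads in all 3 vehicle libraries and 3, 3, 27, 0 and 56 reads in doxorubicin 1 to 5.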
